A study of Mus musculus with 28 samples.

Results

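Bile acid synthesis was followed here through 10 genes measured by RNA-seq in mouse livers with and without human APOBEC3B (A3B): Cyp7a1, Cyp8b1, Cyp27a1, Cyp7b1, Baat, Slc27a5, Amacr, Hsd3b7, Akr1d1 and Nr0b2. They were chosen by name, and all 10 were found among the 35858 gene symbols of one set of libraries (set 2) and among the 24845 gene rows of the other (set 1). Each of the 10 also passed the filter on low values in both sets. Hsd3b7, Cyp7b1 and Baat were the genes whose levels lay below every control in every A3B liver of both sets. Cyp7a1 and Cyp8b1 were nearly absent in 1 A3B liver of each set and were otherwise spread widely.

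A3B is a cytidine deaminase, and in this model the human enzyme fused to turboGFP sits at the Col1a1 locus under a tetracycline-responsive promoter. It is switched on by doxycycline in mice that also carry the ubiquitous CAGs-rtTA3 activator, so that A3B is made in many tissues and not in hepatocytes alone. Mice received food with 625 ppm doxycycline from an age of 4 weeks. Set 2 held livers of 6 A3B mice (44, 48, 49, 125, 137 and 153), which carried both transgenes, and of 2 controls (45 and 168), which carried A3B without the activator. All 8 mice of set 2 had 10 days on doxycycline by their labels and by the study's mouse table, although its account of the editing pipeline describes the 2 controls as having had none. The mouse table also gives these livers' genotypes as their own labels do, whereas the pancreas labels of mice 44, 137, 45 and 168 give the reverse. Set 1 held livers of 3 A3B mice with both transgenes, of which mice 23 and 28 had 14 days and mouse 70 had 10 days on doxycycline, and of 3 controls (11, 91 and 92). Controls 91 and 92 carried A3B alone, whereas control 11 was labelled as carrying both transgenes. The labels give 15 days on doxycycline for the set 1 controls and the study's mouse table gives 0 days, so that in set 1 the diet and the transgene cannot be told apart. Each liver came from a separate mouse, and each set was tested on its own.

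In set 1 the human transgene was between 705 and 1705 TPM (each gene's share of a library after division by transcript length) in the 3 A3B livers and between 0.0928 and 0.144 TPM in the 3 controls, control 11 included. It was not analysed here in set 2. The total of the estimated counts per set 2 liver lay between 65161064 and 118976013, and the depth of set 1 is unknown because its table holds only TPM. Both groups had the RNA of liver: the summed TPM of 8 hepatocyte markers was between 45649 and 90778 in A3B livers and between 105088 and 162452 in controls of set 2, and between 20458 and 28004 against 28982 and 39983 in set 1. These sums were therefore lower in every A3B liver than in every control of its set, and their part in the differences of the bile acid genes was not tested. Their largest part in set 2 was albumin (Alb), at 19353 to 44124 TPM in A3B livers and 54669 and 107806 TPM in controls. In set 1 it was transferrin (Trf), at 11654 to 18024 TPM against 19370 to 27154 TPM. Of the 8 markers, 5 overlapped between the groups in set 2 and 4 in set 1, and Fgb had a positive fold change in both. In bulk tissue fewer hepatocytes and less RNA per hepatocyte cannot be told apart. RNA of pancreatic enzymes was present in A3B livers 44 and 153 and in control liver 45, where chymotrypsinogen Ctrb1 had 152, 371 and 18.8 TPM against at most 0.651 TPM in the other 5 livers. Y-chromosome genes were on in A3B livers 125, 137 and 153 and control liver 168 of set 2, but only in control liver 11 of set 1. For set 2 this held for Ddx3y, Eif2s3y and Uty, whereas Kdm5d also had reads in livers counted here as without Y expression: 3.48 TPM in A3B liver 48 and 1.31 TPM in A3B liver 44, against 2.61 TPM in control 168.

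Bile acids are made from cholesterol in hepatocytes. Cyp7a1, the rate-limiting enzyme, opens the classic pathway, and Cyp27a1 with Cyp7b1 forms the alternative one. Hsd3b7 and Akr1d1 then modify the sterol rings, Cyp8b1 directs the product towards cholic acid, Amacr takes part in shortening the side chain in peroxisomes, and Slc27a5 and Baat attach the amino acid taurine or glycine. Bile acids restrain their own synthesis: they activate the nuclear receptor FXR (Nr1h4), which induces Nr0b2 (small heterodimer partner, SHP), a repressor of Cyp7a1 and Cyp8b1.

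Promoter windows of RefSeq on GRCm38.p6 (250 bases before to 50 bases after a gene's start) were matched for 5 of the 10 genes, Cyp8b1, Cyp27a1, Hsd3b7, Akr1d1 and Nr0b2. The 250 bases before the start are shown for Hsd3b7, which was lower in both sets, for Cyp8b1, and for Nr0b2, a repressor with Cyp8b1 among its known targets. Each runs 5′ to 3′ along the gene, in lower case with the motifs in capitals.
Hsd3b7: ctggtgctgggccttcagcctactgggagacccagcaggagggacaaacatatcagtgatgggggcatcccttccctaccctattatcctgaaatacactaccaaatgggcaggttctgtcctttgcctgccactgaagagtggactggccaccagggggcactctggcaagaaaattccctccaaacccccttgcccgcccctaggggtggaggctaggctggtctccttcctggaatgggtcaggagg
Cyp8b1: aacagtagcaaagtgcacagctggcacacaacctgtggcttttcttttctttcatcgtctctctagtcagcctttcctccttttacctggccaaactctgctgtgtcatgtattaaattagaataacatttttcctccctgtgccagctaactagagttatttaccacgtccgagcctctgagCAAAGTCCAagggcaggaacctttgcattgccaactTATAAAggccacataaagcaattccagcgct
Nr0b2: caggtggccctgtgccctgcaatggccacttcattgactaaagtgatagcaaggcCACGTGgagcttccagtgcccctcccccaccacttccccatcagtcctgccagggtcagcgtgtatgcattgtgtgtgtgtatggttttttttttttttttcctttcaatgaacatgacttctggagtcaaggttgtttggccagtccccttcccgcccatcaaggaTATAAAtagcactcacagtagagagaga

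These stretches lie at chr7:127800359-127800608 (plus strand) for Hsd3b7, chr9:121916306-121916555 (minus strand) for Cyp8b1 and chr4:133553126-133553375 (plus strand) for Nr0b2. Starts follow RefSeq here, whereas gene positions given below follow GENCODE, which starts Hsd3b7 a few bases further upstream. A few letter strings were searched on both strands of the whole windows. The core of the NR5A2 (LRH-1) site was spelled CAAGGTC and was held by 3.96% of 32851 promoter windows. The HNF4A-type site was spelled CAAAGTCCA and was held by 0.475% of the windows. A nuclear receptor half-site, spelled AGGTCA, was held by 16.3% and a TATA box, spelled TATAAA, by 13.6%. The CCAAT box was held by 37.4% and an E-box, spelled CACGTG, by 7.15%. The Cyp8b1 window held the HNF4A-type string at position -67 and the TATA box at position -31, counted from the start of the gene. The Nr0b2 window held the E-box at -195 and the TATA box at -28. Cyp27a1 had the CCAAT box on the opposite strand at -71 and -34, and Akr1d1 had the half-site on the opposite strand at -232 and -210. The Hsd3b7 window held none of the searched strings. These are matches of letters and describe the windows only.

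Hsd3b7, the dehydrogenase that oxidizes the sterol ring after 7-hydroxylation in both pathways, lies at chr7:127800604-127803802 (GRCm38, plus strand). In set 2 it had 170 TPM in A3B liver 44, 110 in 48, 126 in 49, 76.5 in 125, 150 in 137 and 210 in 153, against 495 TPM in control 45 and 420 in control 168. The groups did not overlap, and the lowest A3B level was that of liver 125. The A3B mean was 140 ± 46.9 TPM (SD, n = 6) and the control mean 457 ± 53.3 TPM (SD, n = 2). This was a log2 fold change of -2.06 (SE 0.35, edgeR quasi-likelihood test, adjusted p = 0.0161). In set 1 it was at 105, 61.6 and 180 TPM in A3B livers 23, 28 and 70 and at 590, 512 and 466 TPM in controls 11, 91 and 92, again with no overlap. The log2 fold change there was -2.29 (SE 0.42, limma, adjusted p = 0.0309). A protein-coding gene model, Gm49388, overlaps Hsd3b7 on the same strand, so that reads could be split between them.

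Cyp7b1, the oxysterol hydroxylase of the alternative pathway, is known to be higher in male than in female mouse liver and lies at chr3:18071950-18243338 (minus strand). In set 2 it was at 0.613, 1.24 and 0.653 TPM in A3B livers 44, 48 and 49 and at 7.64, 5.18 and 11.9 TPM in A3B livers 125, 137 and 153. Control 45 had 15.7 TPM and control 168 had 167 TPM. All 6 A3B livers lay below both controls, and the controls themselves were far apart. The log2 fold change of -4.77 (SE 1.17) was the largest of the 10 genes in set 2 but missed the threshold (edgeR, adjusted p = 0.0597), and without control 168 it was -2.08. The level followed Ddx3y, Eif2s3y and Uty. Among livers with Y expression the 3 A3B livers had 5.18 to 11.9 TPM against 167 TPM in the control, and among those without it 0.613 to 1.24 TPM against 15.7 TPM. With Y expression as a covariate the log2 fold change was -4.61 and passed (edgeR, adjusted p = 0.00395). Of 4 other genes known to be higher in male mouse liver (Elovl3, Cyp2d9, Mup20 and Hsd3b5), 4 had negative fold changes in set 2 and 3 in set 1. The adjusted threshold was met by 0 of them in set 2 (edgeR), beside 2.41% of all genes called lower and 1.26% called higher. An unadjusted p under 0.05 was found for 2 of them there (edgeR), beside 22.9% of all genes. Hsd3b5 alone was called lower in set 1 (log2 fold change -5.78, limma, adjusted p = 0.0277), beside 1.86% of all genes. Among set 2 livers with Y expression Mup20 was between 384 and 854 TPM with A3B against 5790 TPM in the control. Elovl3 was between 18.5 and 37.9 TPM against 194 TPM in the same livers. Among set 2 livers without Y expression Elovl3 (0.0913 to 4.75 TPM against 3.26) and Cyp2d9 (24.4 to 97.7 against 51.1) overlapped. Mup20 (30.9 to 88.1 TPM against 165) and Hsd3b5 (0 to 0.607 against 41.9) were lower there. In set 1 livers without Y expression Cyp2d9 was higher with A3B, at 124 to 631 TPM against 33.9 and 34.5. Mup20 overlapped there, and Elovl3 and Hsd3b5 were lower. The part of these genes in the difference of Cyp7b1 was not tested. In set 1 Cyp7b1 was at 0.195, 0.0794 and 0.436 TPM in A3B livers 23, 28 and 70 and at 14.0, 8.28 and 7.38 TPM in controls 11, 91 and 92. This was a log2 fold change of -3.10 (SE 0.33, limma, adjusted p = 0.0109) on the log2(TPM + 1) scale, which understates the change of low genes. Without control 11, the only liver of set 1 with Y expression, the 2 genes Cyp7b1 and Hsd3b7 still passed.

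Baat, which joins bile acids to taurine or glycine, lies at chr4:49489422-49506557 (minus strand). The 6 A3B livers of set 2 were close together at 78.5 (44), 64.0 (48), 53.4 (49), 71.2 (125), 75.9 (137) and 86.7 TPM (153). Both controls were above them, with 140 TPM in 45 and 156 TPM in 168. Baat fell by 1.42 on the log2 scale (SE 0.27, edgeR, adjusted p = 0.0248), and averaged 148 ± 11.6 TPM in controls (SD, n = 2) against 71.6 ± 11.7 TPM with A3B (SD, n = 6). In set 1 the A3B livers had 162 (23), 32.0 (28) and 255 TPM (70) and the controls 489, 330 and 317 TPM, with no overlap but a wider spread. The log2 fold change of -1.74 (SE 0.72) did not pass (limma, adjusted p = 0.142), and it was -0.87 without A3B liver 28.

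**Figure D1:**
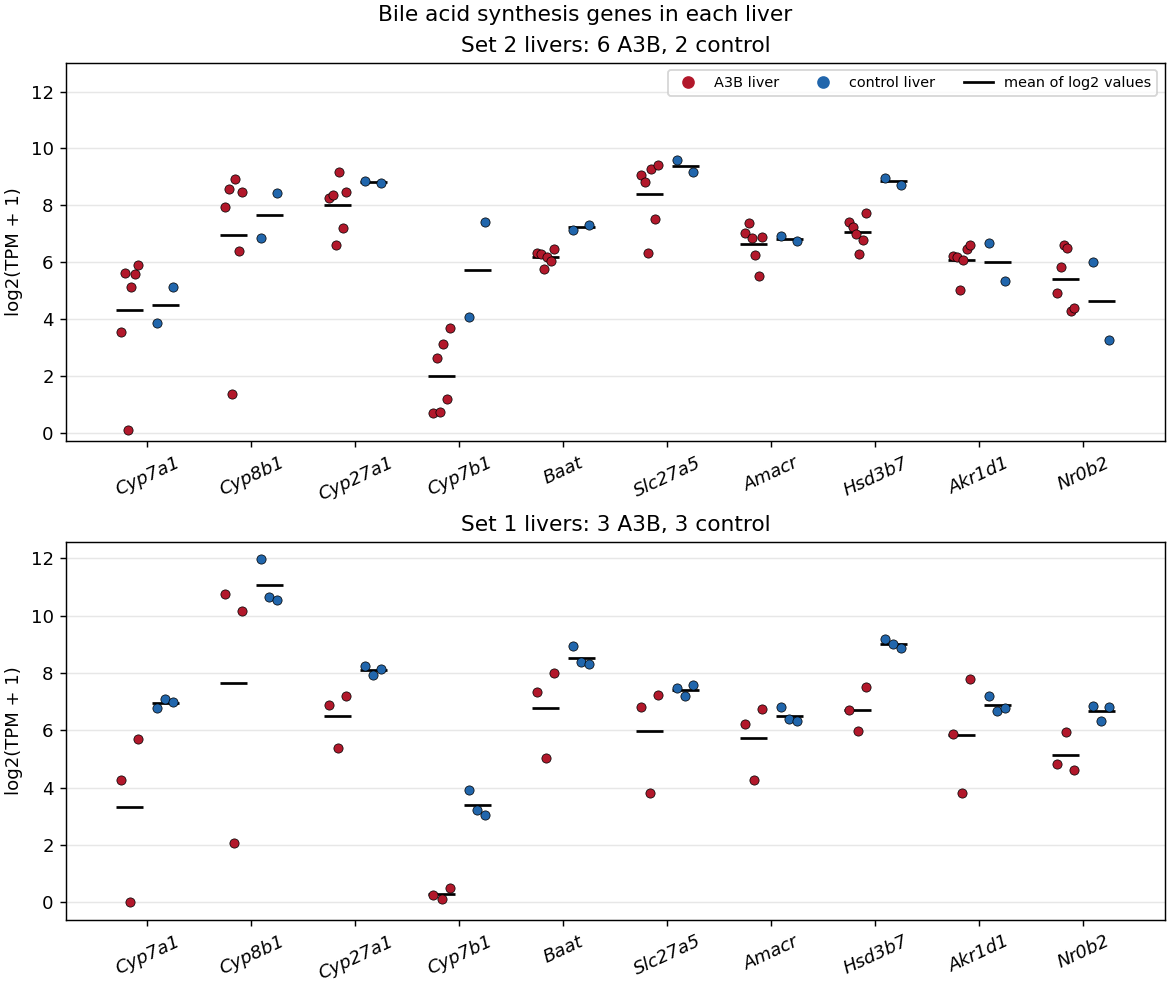
Level of each of the 10 genes in every liver, as log2(TPM + 1) on the vertical axis, for the 6 A3B and 2 control livers of set 2 (top) and the 3 A3B and 3 control livers of set 1 (bottom). Points are livers and bars the mean of the log2 values; the A3B points of Cyp7b1, Baat and Hsd3b7 lie below all control points in both sets.

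Of the 10 genes, 2 were called lower and 0 higher in A3B livers of set 2 (Hsd3b7 and Baat), beside 2.41% of the 17365 genes tested that were called lower and 1.26% that were called higher. In set 1 again 2 were called lower and 0 higher (Hsd3b7 and Cyp7b1), beside 1.86% of 11507 genes called lower and 6.07% called higher. At an unadjusted p under 0.05, 3 of the 10 passed in set 2 and 6 of the 10 in set 1, as did 22.9% and 32.6% of all genes tested in either direction. In 3 of the 10 genes every A3B liver of set 2 lay below both controls, as in 5.42% of all genes tested, and in 6 of the 10 every A3B liver of set 1 lay below all controls, as in 10.3% of all genes. None of the 10 lay above every control in every A3B liver of either set, whereas 24.3% of all genes tested did in set 2 and 28.5% in set 1. Fold changes were negative for 9 of 10 genes in set 2 and for 10 of 10 in set 1. Their median log2 fold change was -0.75 in set 2 and -1.68 in set 1, and that of all genes tested was 0.21 and 0.39.

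Some calls were lost when a library was left out. Baat lost its call in set 2 without A3B liver 44 (edgeR, adjusted p = 0.0572), without A3B liver 137 (0.0639) and without control 45 (0.112) or control 168 (0.258). Hsd3b7 lost it without control 45 (edgeR, adjusted p = 0.113) or control 168 (0.133). Those fits leave 1 control, which is assumed to vary like the A3B livers, and call 74 and 73 genes in all in place of 636. The fold changes moved little, between -2.21 and -2.02 for Hsd3b7 and between -1.71 and -1.28 for Baat over all livers left out in turn. Without the 3 livers with pancreatic enzyme RNA, an alternative chosen after seeing the data that leaves 1 control, neither passed, with log2 fold changes of -1.63 for Baat and -2.25 for Hsd3b7. In set 1 Cyp7b1 and Hsd3b7 lost their calls without control 91 (limma, adjusted p = 0.076 and 0.143) or control 92 (0.059 and 0.137), and Hsd3b7 also without A3B liver 23 (0.0924). These fits called 1, 9 and 55 genes in all in place of 913, and the log2 fold change stayed between -3.26 and -2.84 for Cyp7b1 and between -2.68 and -1.91 for Hsd3b7. In none of these fits did Hsd3b7, Baat or Cyp7b1 change direction.

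**Figure D2:**
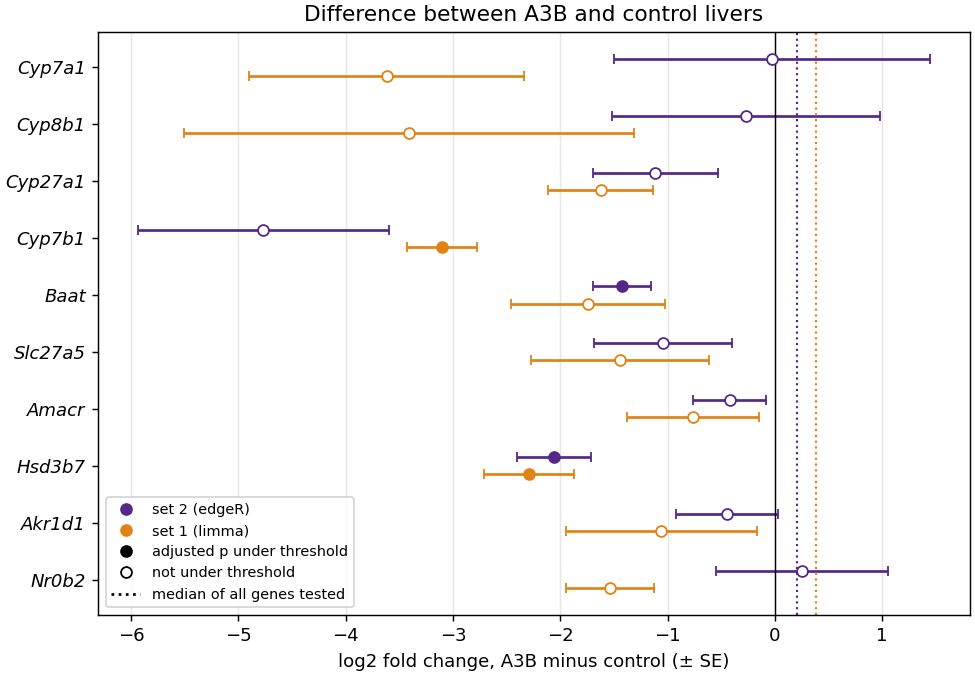
Log2 fold change (A3B minus control, horizontal axis) with its SE for the 10 genes in set 2 (edgeR, SE derived from the F statistic) and set 1 (limma). Filled points have an adjusted p under 0.05 and dotted lines mark the median of all genes tested in each set. Hsd3b7 had nearly the same value in both sets, -2.06 and -2.29, whereas Cyp7a1 and Cyp8b1 had values near 0 in set 2 with SEs above 1.

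Cyp7a1, the rate-limiting enzyme of the classic pathway, had 10.5 TPM in A3B liver 44, 46.9 in 48, 0.0523 in 49, 34.2 in 125, 47.4 in 137 and 58.7 in 153. The set 2 controls had 13.6 (45) and 34.0 TPM (168). Livers 48, 125, 137 and 153 lay above both controls and livers 44 and 49 below both, and the library with the lowest value held an estimated count of 12 for this gene. The log2 fold change was -0.03 with an SE of 1.47 (edgeR, adjusted p = 0.994), too wide to show a change in either direction, and its sign depended on the scaling. The set 1 controls were tightly grouped at 109, 135 and 126 TPM. A3B livers 23 and 70 had 18.3 and 51.7 TPM, and liver 28 was listed at 0. All 3 A3B livers lay below all controls, with a log2 fold change of -3.62 (SE 1.28, limma, adjusted p = 0.105). It passed without A3B liver 28 (log2 fold change -1.95, limma, adjusted p = 0.0491) and without A3B liver 70 (-4.81, adjusted p = 0.0469).

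Cyp8b1, which adds the hydroxyl group particular to cholic acid, was at 246 (44), 83.4 (48), 1.57 (49), 482 (125), 377 (137) and 353 TPM (153) in A3B livers of set 2. Controls 45 and 168 had 114 and 347 TPM, inside the range of the A3B livers. Its log2 fold change was -0.27 (SE 1.25, edgeR, adjusted p = 0.919), and it became 0.10 with counts scaled by their totals. Set 1 livers with A3B had 1745 (23), 3.17 (28) and 1137 TPM (70) and the controls 4058, 1626 and 1506 TPM. Liver 23 lay above 2 of the 3 controls and only liver 28 was far below them, so that the mean difference rested on that liver: the log2 fold change was -3.41 (SE 2.09, limma, adjusted p = 0.29) and -0.61 without it.

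Cyp27a1, the mitochondrial hydroxylase that opens the alternative pathway and oxidizes the side chain, was at 303 (44), 146 (48), 95.9 (49), 569 (125), 324 (137) and 355 TPM (153) in A3B livers of set 2. The controls had 461 and 437 TPM. Liver 125 was above both controls and the other A3B livers were below them (log2 fold change -1.11, SE 0.58, edgeR, adjusted p = 0.281). In set 1 it was at 117, 41.0 and 147 TPM in A3B livers 23, 28 and 70 and at 306, 246 and 281 TPM in the controls. These groups did not overlap, and the log2 fold change of -1.63 (SE 0.49) missed the threshold (limma, adjusted p = 0.0748) but passed without A3B liver 70 (-1.98, adjusted p = 0.049).

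Slc27a5, the ligase that activates bile acids before conjugation, had the highest mean level of the 10 genes in set 2 controls, 666 ± 137 TPM (SD, n = 2). The A3B livers had 532 (44), 184 (48), 79.4 (49), 616 (125), 454 (137) and 683 TPM (153), and the controls 763 and 569 TPM. Livers 48 and 49 were far below the controls, whereas 125 and 153 fell between them. Its log2 fold change was -1.05 (SE 0.64, edgeR, adjusted p = 0.358). In set 1 it was at 112, 13.3 and 151 TPM in A3B livers 23, 28 and 70 against 177, 146 and 190 TPM, a log2 fold change of -1.45 (SE 0.83, limma, adjusted p = 0.262), which was -0.38 without liver 28.

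Amacr and Akr1d1 passed in neither set, and both had log2 fold changes near 0 in set 1 without A3B liver 28 (-0.035 and -0.052). Amacr, the racemase of side chain shortening, was between 44.4 and 163 TPM in A3B livers of set 2, with a median of 115 TPM, and at 120 and 105 TPM in the controls, which lay inside that range. Its log2 fold change was -0.42 (SE 0.34, edgeR, adjusted p = 0.486) in set 2 and -0.77 (SE 0.61, limma, adjusted p = 0.406) in set 1. Akr1d1, the reductase of the sterol ring, was between 31.6 and 96.0 TPM in A3B livers of set 2 and at 101 and 39.5 TPM in the controls. The spread between the controls covered most of the A3B range (log2 fold change -0.45, SE 0.47, edgeR, adjusted p = 0.607). In set 1 Akr1d1 was at 57.5, 13.1 and 223 TPM in A3B livers 23, 28 and 70 and at 148, 100 and 110 TPM in the controls. Liver 70 was thus above all controls and the other A3B livers below them (log2 fold change -1.06, SE 0.89, limma, adjusted p = 0.426).

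Nr0b2, the repressor induced by bile acids, was the only one of the 10 genes with a positive fold change in set 2, 0.25 (SE 0.80, edgeR, adjusted p = 0.882), and this sign was lost without A3B liver 49 or 125 or control 168. It had 28.7 TPM in A3B liver 44, 18.3 in 48, 95.0 in 49, 88.8 in 125, 55.0 in 137 and 19.8 in 153. The controls had 63.2 TPM (45) and 8.44 TPM (168), so that the groups overlapped. The A3B livers of set 1 had 27.6 (23), 60.1 (28) and 23.8 TPM (70), below the 115, 78.9 and 113 TPM of the controls. The log2 fold change of -1.54 (SE 0.41) missed the threshold (limma, adjusted p = 0.0584), and it passed with each liver centred on its median (-1.99, adjusted p = 0.0336) and without A3B liver 28 (-1.93, adjusted p = 0.0223). The difference between the sets was not tested, since they were normalized separately.

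**Figure D3:**
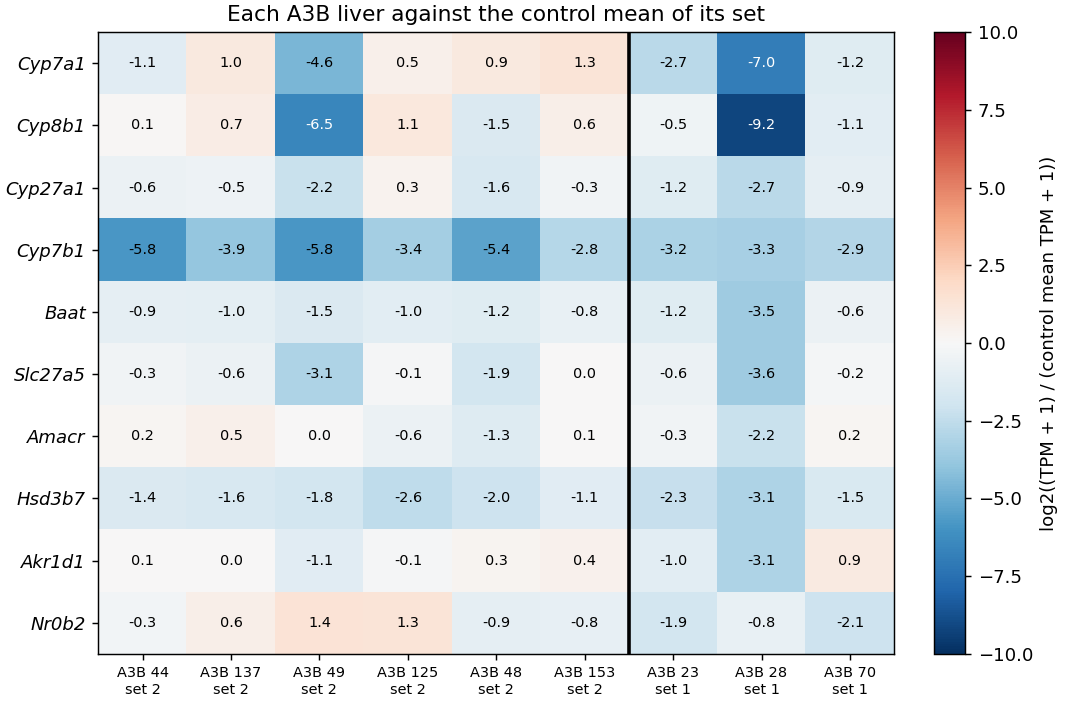
Each A3B liver (columns) against the mean of the controls of its set for the 10 genes (rows); colour and printed value give log2 of (TPM + 1) over (control mean TPM + 1), blue for lower and red for higher. Livers 49 and 28 have the lowest Cyp7a1 and Cyp8b1, while Cyp7b1, Baat and Hsd3b7 are lower than the control mean in every column.

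A3B liver 49 in set 2 and A3B liver 28 in set 1 stood apart from the other livers of their groups. In liver 49, 8 of the 10 genes were below 50% of the control mean, and in liver 28, 9 of the 10 were. The nearest livers were 48 in set 2 and 23 in set 1, each with 7 of the 10. Cyp7a1 in liver 49 was at 0.22% and Cyp8b1 at 0.681% of the control mean, and Cyp8b1 in liver 28 was at 0.132%. In both livers Nr0b2 was the highest of the A3B livers of the set, 95.0 and 60.1 TPM, although in liver 28 it stayed below every control. The median over the 10 genes was 24.5% of the control mean in liver 49 and 9.71% in liver 28. A3B liver 48 had a median of 37.8%, and the other A3B livers had medians between 73.6% and 93.2% in set 2 and of 42.4% (23) and 50.1% (70) in set 1. Livers 49 and 28 also had the highest summed TPM of 5 neutrophil markers in their sets, 96.8 and 124 TPM, against 4.37 to 36.1 TPM in the other A3B livers and 2.71 and 4.18 TPM in controls of set 2, and 12.0 and 43.7 TPM in the other A3B livers and 9.68 to 22.4 TPM in controls of set 1. Most of these sums came from S100a8 and S100a9, and Ly6g in liver 28 was at 2.92 TPM, below the 7.58 to 14.8 TPM of the controls. The macrophage marker sums of livers 49 and 28, 740 and 595 TPM over 6 genes, were also the highest of their sets. In liver 28, however, 527 TPM of the sum was Cd68 alone, and Adgre1, Clec4f, Csf1r and Lyz2 were each below every control of set 1. Liver 49 also had the lowest hepatocyte marker sum of set 2, 45649 TPM, followed by liver 48 with 54278 TPM, and liver 28 had 20987 TPM against 20458 TPM in liver 23 and 28004 TPM in liver 70. The part of these cells in the levels of the bile acid genes was not tested.

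Set 2 allowed the transcripts of each gene to be separated. Cyp8b1, Cyp7b1 and Nr0b2 had 1 annotated transcript each, and 13 were annotated for Hsd3b7. The main coding transcript Hsd3b7-201 was at 95.1 TPM on average in A3B livers and at 374 TPM in controls, so that the fall of the gene was also that of its coding transcript. Transcripts annotated as retaining an intron, which do not give the full protein, took a larger share of Hsd3b7 in A3B livers. This share was 21.8% (44), 36.0% (48), 15.0% (49), 21.4% (125), 19.6% (137) and 12.0% (153), against 7.49% and 5.81% in controls 45 and 168. For Cyp27a1 it was 18.8%, 52.8%, 20.1%, 23.6%, 17.5% and 20.1% in the same order of A3B livers and 13.4% and 5.68% in the controls. The groups did not overlap for either gene, and liver 48 was the highest in both. Liver 48 also had the highest mean share over all genes with such transcripts, 16.96% against 10.2% to 14.4% in the other A3B livers and 9.99% and 9.30% in controls, and the lowest summed TPM of macrophage (26.7), endothelial (17.7) and stellate cell (23.6) markers of set 2. Slc27a5, the third of the 10 genes with such a transcript, had 0.566% to 2.04% in A3B livers and 0.316% and 0.194% in controls. Among 6021 genes with a retained-intron transcript and at least 1 TPM in every liver, the share was higher in every A3B liver than in both controls for 17.4% and lower for 1.94%. The median share over those genes was between 3.95% and 7.74% in A3B livers and 4.21% and 3.35% in the controls. With 6 livers against 2 these shares were not tested, and kallisto assigns reads to such transcripts by model.

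**Figure D4:**
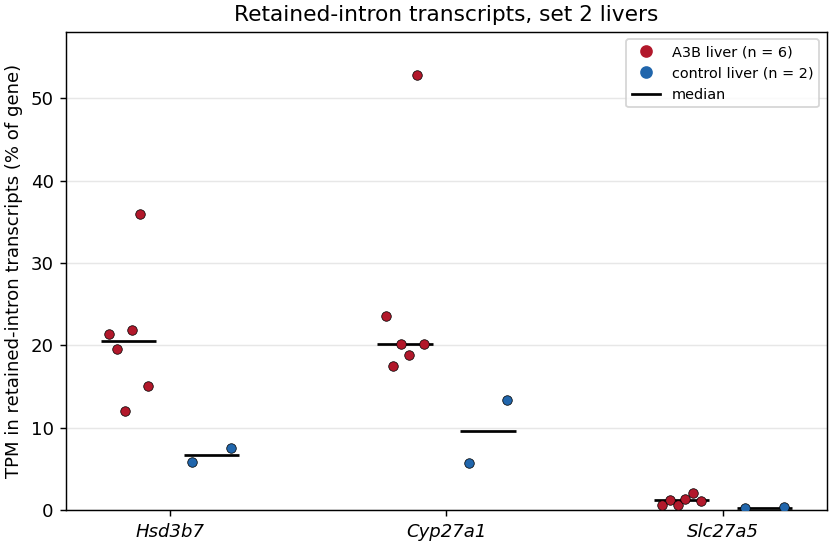
Share of each gene's TPM (vertical axis, percent) in transcripts annotated as retained intron in the 6 A3B and 2 control livers of set 2; points are livers and bars medians. Every A3B point of Hsd3b7, Cyp27a1 and Slc27a5 lies above both control points of the same gene.

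Other enzymes of bile acid synthesis were counted in a list of 15 genes. In set 2, 3 of the 15 were lower and 0 were higher after adjustment over all genes, beside 2.41% and 1.26% of all genes tested, with a median log2 fold change of -0.49. Fold changes were negative for 8 and positive for 7 of the 15. At an unadjusted p under 0.05, 7 of the 15 passed (edgeR), beside 22.9% of all genes. Scp2, the peroxisomal thiolase and sterol carrier of side chain shortening, was between 557 and 800 TPM in A3B livers and at 3194 and 3527 TPM in controls. It fell by 2.77 on the log2 scale (SE 0.38, edgeR, adjusted p = 0.00792). Cyp2c70, which makes the muricholic acids of rodents, was between 30.5 and 124 TPM in A3B livers and at 488 and 444 TPM in controls (log2 fold change -3.31, SE 0.46, edgeR, adjusted p = 0.00826). Abcd3, a peroxisomal importer of bile acid intermediates, was lower by a log2 fold change of -1.27 (SE 0.28, edgeR, adjusted p = 0.0399). In set 1, 13 of the 15 were tested and 0 passed in either direction, beside 1.86% of all genes lower and 6.07% higher, with 4 at an unadjusted p under 0.05 (limma), beside 32.6% of all genes. There the log2 fold changes were -1.68 for Scp2 (limma, adjusted p = 0.0509), -2.69 for Cyp2c70 (0.0749) and -0.92 for Abcd3 (0.165), and every A3B liver lay below every control for each of them. In set 2, 5 of the 15 lay below both controls in every A3B liver (these and Acnat1 and Fdx1), beside 5.42% of all genes tested. Another 4 of the 15 lay above both controls in every A3B liver (Cyp39a1, Acox2, Acot8 and Ch25h), beside 24.3% of all genes tested, and none of these passed. Cyp39a1, which hydroxylates 24-hydroxycholesterol, was between 45.2 and 125 TPM in A3B livers against 25.9 and 20.2 TPM in controls of set 2 (log2 fold change 1.43, SE 0.43, edgeR, adjusted p = 0.0918). It also lay above every control in set 1 (log2 fold change 1.65, SE 0.57, limma, adjusted p = 0.0989).

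Among 15 regulators of bile acid synthesis 0 were lower and 1 was higher in set 2, beside 2.41% and 1.26% of all genes tested, with a median log2 fold change of 0.05. The higher one was Ppargc1a, a coactivator of fasting metabolism, at 7.49 to 50.9 TPM in A3B livers against 4.24 and 1.49 TPM in controls (log2 fold change 2.85, SE 0.61, edgeR, adjusted p = 0.0373). No regulator was called higher in 8 of 15 alternatives: with the Y covariate, without A3B liver 44, 125, 137 or 153, without control 45 or 168, and without the livers with pancreatic enzyme RNA. Fgfr4, the receptor through which the gut hormone FGF15 represses Cyp7a1, had a log2 fold change of -1.37 (edgeR, adjusted p = 0.0935) and Onecut1, a hepatocyte transcription factor, one of -1.34 (adjusted p = 0.191). The bile acid receptor gene Nr1h4 was at 106 ± 34.2 TPM with A3B (SD, n = 6) and at 67.9 ± 0.149 TPM without it (SD, n = 2; log2 fold change 0.29, edgeR, adjusted p = 0.745). At an unadjusted p under 0.05, 3 of the 15 passed in set 2 (edgeR), beside 22.9% of all genes. In set 1, 0 of the 15 passed in either direction, beside 1.86% of all genes lower and 6.07% higher, and 2 had an unadjusted p under 0.05 (limma), beside 32.6%. The log2 fold changes there were 2.02 for Ppargc1a (adjusted p = 0.0948), -1.20 for Fgfr4 (0.0944), 0.58 for Onecut1 (0.547) and -0.01 for Nr1h4 (0.996).

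Of 12 bile acid transporters 3 were lower and 0 were higher in set 2, again beside 2.41% and 1.26% of all genes tested, with a median log2 fold change of -0.20. Slco1a1, an uptake carrier of the sinusoidal membrane, was between 0.889 and 4.86 TPM in the A3B livers and at 175 and 162 TPM in the controls. It fell by 6.78 on the log2 scale (SE 0.57, edgeR, adjusted p = 0.00296), and in set 1 it fell by 4.58 (SE 0.74, limma, adjusted p = 0.0233). Abcb11, the bile salt export pump, had a log2 fold change of -2.09 (SE 0.35, edgeR, adjusted p = 0.0161) in set 2. Its TPM overlapped between the groups through A3B liver 48, with 168 TPM against 123 TPM in control 168, although its estimated count there, 15689, was below both controls. Slco1b2, another uptake carrier, fell by 2.91 (SE 0.50, edgeR, adjusted p = 0.0176). In set 1, 11 of the 12 were tested and 1 was lower, Slco1a1, beside 1.86% of all genes tested. At an unadjusted p under 0.05, 4 of the 12 passed in set 2 (edgeR), beside 22.9% of all genes, and 6 of the 11 in set 1 (limma), beside 32.6%. The log2 fold change in set 1 was -1.92 for Abcb11 (limma, adjusted p = 0.0877) and -3.79 for Slco1b2 (0.0816). Slc51b, a subunit of the basolateral exporter and a known FXR target, was highest in liver 49 of set 2 (49.6 TPM) and liver 28 of set 1 (65.2 TPM), the livers with the least Cyp7a1 and Cyp8b1. Abcb11, also a known FXR target, was below all controls in the same livers, at 50.8 TPM in liver 49 and 19.0 TPM in liver 28 against 81.3 to 157 TPM in set 1 controls. Slc51b was named after its values were seen, and its log2 fold changes of 3.38 in set 2 (edgeR, adjusted p = 0.0791) and 2.39 in set 1 (limma, adjusted p = 0.152) did not pass.

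**Figure D5:**
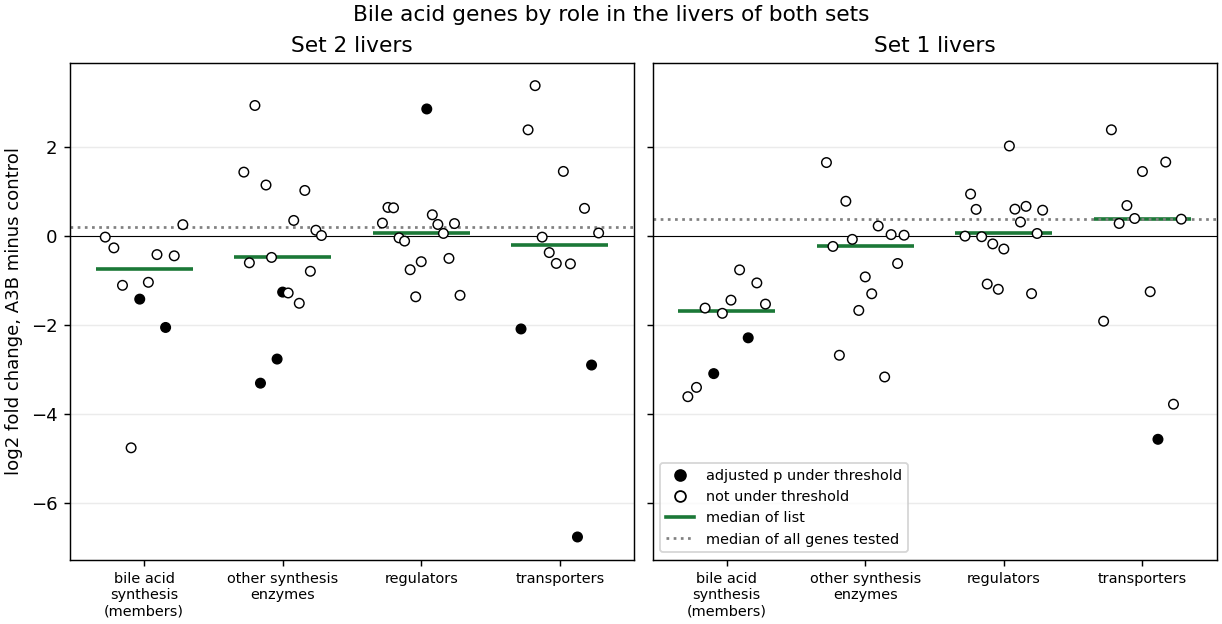
Log2 fold change (A3B minus control, vertical axis) of each gene in the 10 bile acid synthesis genes and the lists of other synthesis enzymes, regulators and transporters, in set 2 (left) and set 1 (right). Filled points have an adjusted p under 0.05, green bars are list medians (-0.75, -0.49, 0.05 and -0.20 in set 2) and the dotted line is the median of all genes tested.

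Of the 8 hepatocyte markers, 7 had negative fold changes in each set, and 1 was lower in set 2 and 0 in set 1 after adjustment, beside 2.41% and 1.86% of all genes. At an unadjusted p under 0.05, 4 of the 8 passed in set 2 (edgeR), beside 22.9% of all genes, and 2 in set 1 (limma), beside 32.6%. Every A3B liver lay below every control for 3 of the 8 in set 2, beside 5.42% of all genes, and for 4 in set 1, beside 10.3%. The marker called lower in set 2 was transferrin (Trf), at 4178 to 8262 TPM in A3B livers and 16473 and 15245 TPM in controls (log2 fold change -1.94, SE 0.46, edgeR, adjusted p = 0.0486). Trf and transthyretin (Ttr) lay below every control in every A3B liver of both sets, with log2 fold changes for Ttr of -1.49 (edgeR, adjusted p = 0.122) and -1.08 (limma, adjusted p = 0.063). Apoa1, the main protein of high-density lipoprotein, was between 8031 and 17763 TPM in A3B livers of set 2 and at 13551 and 14386 TPM in controls (log2 fold change -0.42, SE 0.47, edgeR, adjusted p = 0.625). Albumin (Alb) was lower in each A3B liver, 19353 to 44124 TPM against 107806 and 54669 TPM, without passing (log2 fold change -1.70, SE 0.52, edgeR, adjusted p = 0.0938). In set 1 the log2 fold changes were -0.68 for Apoa1 (limma, adjusted p = 0.174) and -0.46 for Alb (0.359). Abundant genes cannot be compared between the sets, which were quantified differently.

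The levels of the 10 genes in pancreas and lung are a description with no test. In pancreas of set 2 Cyp7a1, Cyp8b1, Baat and Akr1d1 were at most 0.435, 2.11, 1.29 and 1.73 TPM. Liver RNA was present in some pancreases, with Alb at 634 TPM in A3B pancreas 44 and 454 TPM in 49, between 10.4 and 120 TPM in the other 4 and at 32.7 and 1.19 TPM in controls 45 and 168. The highest levels of Cyp7a1, Cyp8b1, Baat, Akr1d1, Slc27a5 and Amacr were those of pancreases 44 and 49. Slc27a5 was between 0.188 and 5.45 TPM in A3B pancreases and at 0.414 and 0.0826 TPM in the controls, and Amacr between 1.80 and 6.62 TPM against 0.729 and 1.31 TPM. Hsd3b7 stood in the opposite order to the liver, with 42.3 (44), 72.3 (49), 44.4 (53), 35.1 (125), 40.1 (137) and 72.5 TPM (153) in A3B pancreases and 5.92 (45) and 11.5 TPM (168) in controls. Nr0b2 was between 11.2 and 27.3 TPM in the 6 A3B pancreases and at 1.93 and 2.12 TPM in the controls, and Cyp27a1 was between 8.40 and 30.0 TPM against 2.01 and 7.48 TPM. Cyp7b1 was between 2.23 and 4.69 TPM in A3B pancreases and at 0.515 and 0.456 TPM in the controls. TPM is a share of each library, and in the control pancreases 47.8% and 47.0% of it lay in the top 10 genes, against 17.8% to 31.9% in the A3B pancreases, so that the level of any other gene moves with this share. The labels give A3B pancreases 44 and 137 as carrying A3B alone and control pancreases 45 and 168 as carrying both transgenes, against the titles used for the groups. In lung of set 1 Hsd3b7 was between 38.1 and 45.6 TPM in 3 A3B lungs and between 56.9 and 69.2 TPM in 3 controls. Liver RNA was present in some lungs: Alb was at 190, 216 and 245 TPM in A3B lungs 70 and 74 and control lung 88 and between 0.331 and 23.6 TPM in the other 3. Baat was at 4.33, 7.71 and 8.57 TPM in the lungs with liver RNA and between 0.129 and 0.774 TPM in the others. Cyp8b1 followed the same order, at 58.7, 62.7 and 65.7 TPM against 18.5 to 29.0 TPM. Amacr was between 9.51 and 9.91 TPM in A3B lungs and between 6.30 and 7.89 TPM in control lungs, without overlap. Cyp7b1 was between 0.107 and 0.158 TPM against 0.196 and 0.371 TPM, also without overlap but in the other direction and at very low levels. How many of all genes separate the groups in lung or pancreas was not counted. In the livers of set 1, also 3 against 3, 10.3% of all genes tested lay below every control and 28.5% above. Cyp27a1 overlapped, between 12.4 and 18.1 TPM in A3B lungs and 16.4 and 24.2 TPM in controls, and Cyp7a1, Slc27a5, Akr1d1 and Nr0b2 were at most 2.27, 4.15, 4.22 and 2.09 TPM.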

How the data were processed

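RNA-seq of 28 mouse tissues in 2 sets was used, and the comparisons were made in the livers. For set 2 the authors deposited estimated counts and TPM per transcript from kallisto on mm10 (GRCm38). For set 1 the authors deposited TPM per gene, from a read-count matrix of de-duplicated alignments per the file headers. No value column was left out (0 not used). The 10 genes, the lists and the tests were chosen with earlier results of these data known.

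For set 2, 116640 of 119414 transcripts matched GENCODE M21 (2774 did not, and held 0.704% to 1.47% of a liver's counts). Estimated counts were summed per symbol, rounded, filtered with filterByExpr, scaled by TMM and tested with edgeR's robust quasi-likelihood test. That test gives no SE, so the SE printed for edgeR is the absolute log2 fold change over the square root of the F statistic. For set 1, 2 repeated names were left out, genes under a mean of 1 TPM were dropped, values were taken as log2(TPM + 1), and limma was run with trend and robust settings. Tests were kept within a set. P-values were Benjamini-Hochberg adjusted over all genes, at 0.05. Overlap of groups was read on TPM. Genes were named by rule: the 10 genes, up to 3 per list with the smallest p in set 2, Alb and Apoa1. Nr1h4, Slc51b, Ctrb1, Gm49388, Cyp39a1, Acnat1, Fdx1, Acox2, Acot8, Ch25h, Trf, Ttr and the single marker genes were added after seeing values. Both tests were checked on simulated data, where recovery fell as the spread between livers grew. The common biological coefficient of variation of set 2 was 0.57, so that a gene that missed the threshold was not shown to be unchanged. Alternatives were DESeq2, RLE and total-count scaling, no filter, limma on TPM, a pseudocount of 0.1, median centring, limma without trend, a Y covariate, and each liver left out. Precision is limited by 2 controls in set 2 and by the unknown depth of set 1. R 4.3.3, edgeR 4.0.16, limma 3.58.1, DESeq2 1.42.0, Python 3.11.15, numpy 2.4.6, pandas 2.3.3 and matplotlib 3.10.9 were used.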

Additional observations from a re-analysis of the deposited data

Results flagged for a closer look

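In the 6 A3B livers of set 2, liver 49 lay far below the others for Cyp8b1, at 1.57 TPM, and for Akr1d1, at 31.6 TPM. Its gap to the next liver, on the log2(TPM + 1) scale, was 0.667 of the group's range for Cyp8b1 and 0.661 for Akr1d1, above Dixon's 95% limit of 0.625 for 6 samples. In 20 such groups examined (the 10 genes in A3B livers and in A3B pancreases of set 2) chance alone would mark about 1. Without liver 49 the log2 fold change of Cyp8b1 in set 2 was -0.08 and that of Akr1d1 was -0.36 (edgeR, neither passing). The cause was not tested.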

How the results depend on the processing

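No paired analysis was possible because the A3B and control livers compared come from different mice and share no mouse number.

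In set 2 the 2 genes called lower became 3 by DESeq2, with total scaling and with the Y covariate (Cyp7b1 joined them), 1 by limma on log2(TPM + 1), 0 without the livers with pancreatic enzyme RNA (chosen after seeing the data), and between 0 and 2 with each liver left out. All genes called, 636, became 2344 by DESeq2, 1120 with counts scaled by their totals, 1 without the pancreatic enzyme livers and between 73 and 1599 with each liver left out. Of the calls 34.3% were higher in A3B, against 54.8% by DESeq2, 78.5% with total scaling and 74.0% by limma. Over all genes the median log2 fold change, 0.21, became 0.67 with total scaling. In set 1 the 2 genes became 3 with median centring, 1 with no filter and between 0 and 4 with each liver left out. All genes called, 913, became 54 with no filter, 1592 with the Y covariate and between 1 and 1562 with each liver left out. Of the set 1 calls 76.6% were higher, against 37.2% with median centring, which moved the median of all genes from 0.39 to -0.07. No setting called any of the 10 genes higher. The 3 other synthesis enzymes called lower in set 2 became 5 by DESeq2, 0 without the pancreatic enzyme livers and 1 to 5 with each liver left out, and the 3 transporters 2 by limma, 1 without those livers and 1 to 3 with each liver left out; up to 1 gene of either list was called higher. In set 1, 0 other enzymes became 1 in 3 settings and up to 2 with each liver left out, and the 1 transporter 0 with no filter and 0 to 3 with each liver left out.

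Signs turned in set 2 for genes that passed under none of the settings. With total scaling Cyp7a1 became 0.34, Cyp8b1 0.10 and Amacr 0.033. Akr1d1 became 0.081 by limma on log2(TPM + 1) and 0.076 without the pancreatic enzyme livers, and Cyp7a1 became 0.068 with the Y covariate. With each liver left out Cyp7a1 lay between -0.69 and 0.86, Cyp8b1 between -1.01 and 0.86, Akr1d1 between -0.95 and 0.061, and Nr0b2 between -0.62 and 2.02. The causes were not tested.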
